A study of Mus musculus with 8 samples.

Results

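The corticotropin-releasing hormone (CRH) system was followed as 5 genes, Crh, Ucn, Crhr1, Crhr2 and Crhbp, taken as the gene symbols of the pathway's ligands, receptors and binding protein in the array annotation. All 5 had a row in the deposited table, 1 row each, among 19505 named genes and 22206 rows. RNA from the brain of male ICR mice, an outbred strain bought at 8 weeks of age, was hybridized to 8 Clariom S arrays, each given 1 RNA sample. For 7 days the mice drank water, or took rosemary extract (RE) dissolved in it. There were 4 groups of 2 arrays. One group of water drinkers did not undergo the tail suspension test (TST) and another did, and both RE groups, at a low dose (10 mg/kg) or a high dose, underwent it. The TST suspends a mouse by the tail and times how long it stays immobile, which makes it an acute stressor. For the high dose the titles state 100 mg/kg, whereas the source names state 50 mg/kg. The agent label "positive control" goes with the water samples that had no TST and "negative control" with those that had it, and groups follow the titles. The tissue is named limbic system in one field and hippocampus in another. The labels assign 7 mice to a group and do not say whether a group's pair of RNA samples came from separate mice or pools, so the spread behind every p-value is that between these RNA samples and may be technical.

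CRH is the peptide with which neurons of the paraventricular hypothalamus start the pituitary-adrenal stress response, and it is also made in the amygdala and by cortical and hippocampal interneurons. It acts through the G protein-coupled receptor CRHR1, which raises cyclic AMP and is abundant in cortex, hippocampus, cerebellum and anterior pituitary. Urocortin (Ucn), a related peptide made mainly in the Edinger-Westphal nucleus of the midbrain, binds CRHR1 and the second receptor, CRHR2, which is known from lateral septum, ventromedial hypothalamus and choroid plexus. CRH-binding protein (Crhbp) holds both peptides outside the cell and limits their access to the receptors.

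All values are the authors' log2 values after robust multichip average (RMA) normalization, and no detection call comes with them. Array medians lay between 7.45 and 7.51. Crhr2 lay below them on all 8 arrays, and Crh on all but water without TST replicate 2. Differences are differences of group means on the log2 scale, n = 2 arrays per group. Each comes with the standard error (SE) and 95% interval of the limma fit to all 8 arrays. The study's own threshold was a fold change above 1.2 with an unadjusted p under 0.05. No row passed limma with Benjamini-Hochberg adjustment over all 22206 rows in any of the 6 comparisons. Every call named here is thus at the study's threshold alone. By comparison, 425 to 787 rows (1.91 to 3.54%) had an unadjusted p under 0.05 by limma. That is below the share of 0.05 which this limit nominally gives with no difference in any row.

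The arrays differed in brain region markers within the water groups, and in thalamic markers also between RE and water. Water with TST replicate 2 stood apart: its correlation with the other arrays over all rows lay between 0.967 and 0.978, and between 0.983 and 0.993 among the other 7 arrays. As deviations from the mean of all arrays, 8 cerebellar granule cell markers averaged 4.38 there, 2.59 on replicate 1 of water without TST, and -1.49 to -0.48 on the other 6 arrays. For forebrain excitatory neurons, 7 markers averaged -1.97 on water with TST replicate 2, and for hippocampal granule and pyramidal cells 6 markers averaged -0.97, the lowest of the 8 arrays in both lists, against the labelled limbic tissue. Neurod2 (9.38) of the first list and Prox1 (11.24) of the second went the other way and were highest on that array. Water without TST replicate 2 was highest in 9 striatal projection neuron markers, at 1.80, and in 12 hypothalamic markers, at 0.99. Each member was extreme on one of these arrays. For thalamic neurons, 7 markers averaged 1.03 and 0.53 on the low-dose arrays and 0.37 and 0.55 on the high-dose arrays. They averaged -0.60 and -0.40 in water without TST and 0.12 and -1.60 in water with TST. The part of tissue composition in the differences below was not tested.

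**Figure D1:**
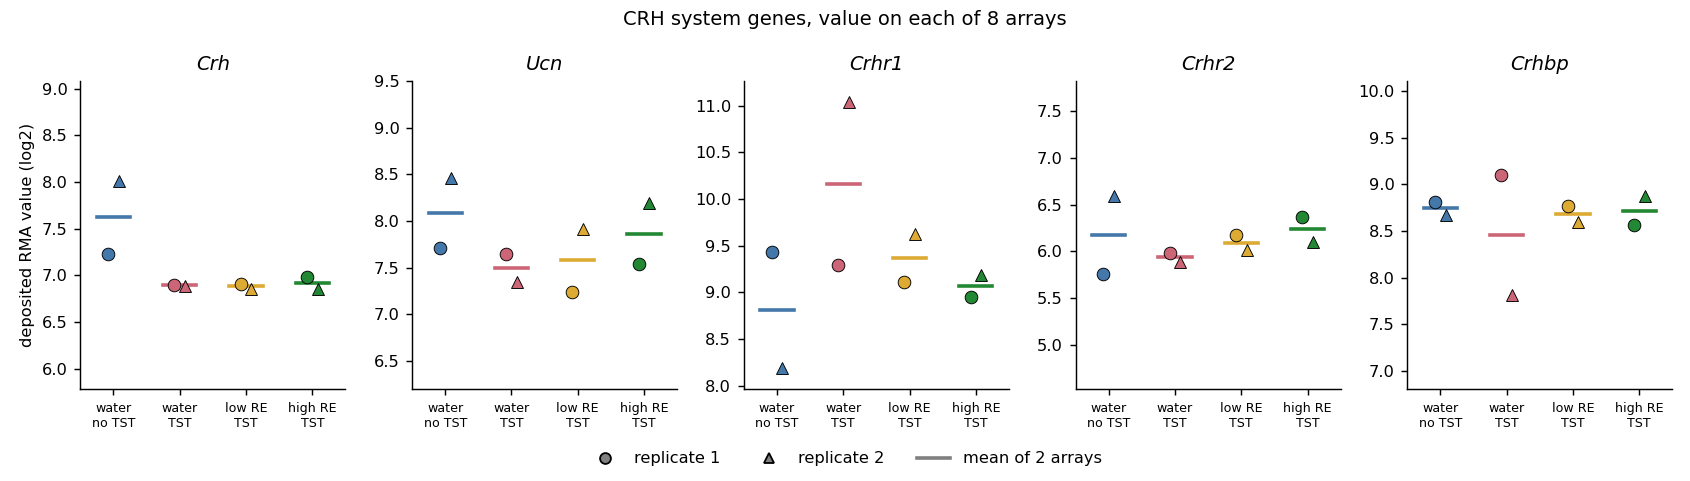
Deposited log2 value of each CRH system gene on each of the 8 arrays, by group, with circles for replicate 1, triangles for replicate 2 and a bar at the mean of the 2 arrays; every panel spans the same number of log2 units. Crh lies between 6.85 and 6.98 on the 6 arrays with TST and at 7.23 and 8.01 without it, and Crhr1 reaches 11.04 on water with TST replicate 2.

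Of the ligands, Crh was higher on both arrays without TST than on any array with it. It read 7.23 and 8.01 in water without TST, 6.90 and 6.88 in water with TST, 6.91 and 6.85 with low-dose RE, and 6.98 and 6.85 with high-dose RE. The 6 arrays with TST thus spanned 0.13 log2 units whatever the drink, while the pair without TST differed by 0.78. Of all rows, 25 (0.113%) had a smaller span over those 6 arrays, and the median span was 0.80. Those 6 Crh values lay below the median of every array, 7.45 to 7.51. Without detection calls, a flat signal near background and a shared Crh level cannot be told apart. All 6 arrays with TST lay below both arrays without it in 2.49% of rows and above both in 3.35%. Group means in descending order were 7.62 ± 0.55 (SD, n = 2) without TST, 6.92 ± 0.09 (SD, n = 2) with high-dose RE, 6.89 ± 0.01 (SD, n = 2) in water with TST and 6.88 ± 0.04 (SD, n = 2) with low-dose RE. The last 3 did not differ beyond their spread.

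Crh was 1.66-fold lower in water with TST than without (-0.73, SE 0.285, 95% interval -1.38 to -0.08), past the study's threshold (unadjusted p = 0.0328, adjusted p = 0.997 by limma). Low-dose RE with TST was lower than water without TST by a similar amount (-0.74, SE 0.285), as was high-dose RE (-0.705, SE 0.285), both past that threshold. These 3 comparisons share the same 2 arrays without TST, so they are not separate observations. Against water without TST, the low-dose difference was -0.35 and the high-dose difference -0.315 without replicate 2 of that group. The low-dose one was -0.77 and -0.71 without low-dose replicate 1 and 2, and the high-dose one -0.77 and -0.64 without high-dose replicate 1 and 2, none of these past the threshold. Crh at either dose lay close to its value in water with TST, and the difference was -0.01 (95% interval -0.66 to 0.64) for the low dose and 0.025 (95% interval -0.63 to 0.68) for the high dose. The intervals leave room for a change somewhat smaller in size than the -0.73 between the water groups. In this bulk RNA, fewer Crh-expressing cells and less Crh RNA per cell cannot be told apart. Without replicate 2 of water without TST, the array highest in hypothalamic and striatal markers, the difference between the water groups was -0.34 and not past the threshold. It was -1.12 and past it without replicate 1 of that group. With either water with TST array left out the difference was -0.74 or -0.72, and with either high-dose array left out it stayed at -0.73, in each case not past the threshold (unadjusted p = 0.0522 to 0.0731).

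Ucn, the other ligand, differed more between the arrays of a group, in 3 of the 4 groups, than between any 2 group means. It read 7.71 and 8.46 in water without TST, 7.65 and 7.35 in water with TST, 7.24 and 7.92 with low-dose RE, and 7.54 and 8.19 with high-dose RE. As for Crh, water without TST replicate 2 was the highest array. The arrays of the water groups did not overlap, but the gap between them was 0.06. Means fell in the order water without TST (8.085 ± 0.53, SD, n = 2), high-dose RE (7.865 ± 0.46), low-dose RE (7.58 ± 0.48) and water with TST (7.5 ± 0.21), with no neighbours further apart than their spread. The TST difference was -0.585 (SE 0.369, 95% interval -1.43 to 0.26) and not past the threshold. Against water with TST, Ucn was at 0.08 (SE 0.369) with the low dose and 0.365 (SE 0.369) with the high dose, neither past it.

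Promoter sequences from RefSeq (GRCm38.p6) were matched for 4 of the 5 genes, Ucn, Crhr1, Crhr2 and Crhbp, and not for Crh. The build behind the array design is not stated in the labels. Shown are the 250 bases before the annotated start of Ucn and Crhr2, which shared with Crh their highest array, and of Crhr1, which was lowest on that array. The windows are Ucn at chr5:31138896-31139145 (minus strand), Crhr1 at chr11:104132531-104132780 (plus strand, inside the annotated extent of the gene, which has an earlier start) and Crhr2 at chr6:55133017-55133266 (minus strand). The Ucn and Crhr2 windows overlapped no annotated gene. Capitals mark a full cyclic AMP response element (CRE, TGACGTCA) or a TATA box (TATAAA).
Ucn: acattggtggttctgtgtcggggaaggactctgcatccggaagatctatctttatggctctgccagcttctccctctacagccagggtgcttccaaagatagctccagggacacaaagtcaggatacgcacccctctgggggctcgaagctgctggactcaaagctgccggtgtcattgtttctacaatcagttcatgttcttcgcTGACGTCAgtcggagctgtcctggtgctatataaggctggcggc
Crhr1: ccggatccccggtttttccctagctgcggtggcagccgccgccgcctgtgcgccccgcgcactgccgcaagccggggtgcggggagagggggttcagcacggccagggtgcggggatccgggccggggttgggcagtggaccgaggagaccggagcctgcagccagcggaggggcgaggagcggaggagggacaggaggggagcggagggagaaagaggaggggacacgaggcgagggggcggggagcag
Crhr2: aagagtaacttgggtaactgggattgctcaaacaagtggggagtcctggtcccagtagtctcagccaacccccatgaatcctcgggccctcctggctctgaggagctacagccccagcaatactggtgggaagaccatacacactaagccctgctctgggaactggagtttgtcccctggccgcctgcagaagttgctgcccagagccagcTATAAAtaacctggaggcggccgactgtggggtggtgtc
The CRE is the site bound by CREB, the transcription factor activated downstream of cyclic AMP. The Ucn window held 1 full CRE, beginning 44 bases before the start, and 1.55% of the 32851 promoter windows of this length held one on either strand. The Crhr2 window held 1 TATAAA, beginning 39 bases before the start, as 12.4% of windows did. The Crhbp window held the CRE half-site TGACG once, on the opposite strand, beginning 64 bases before the start; 17.8% of windows held that half-site, which is part of the full element. Crhr1 had the most GC-rich window of the 4, at 74.8% against a median of 52.4%, and 4.19% of windows were as rich. These matches describe letters in the windows, not binding.

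Of the receptors, Crhr1 had the widest range of the 5 genes, 2.85 log2 units over the 8 arrays, and 1.39% of all rows had a wider one. It read 9.43 and 8.19 in water without TST, 9.29 and 11.04 in water with TST, 9.11 and 9.63 with low-dose RE, and 8.95 and 9.19 with high-dose RE. The highest array, water with TST replicate 2, was also the highest in cerebellar granule cell markers, in Purkinje cell and Bergmann glia markers (4.13 above their mean) and in the average of anterior pituitary markers (0.63). The pituitary markers split. Gh (7.41) and Cga (6.72) were highest there, both below every array's median, while Prl, Tshb, Lhb and Fshb were highest on other arrays. The lowest array for Crhr1, water without TST replicate 2, was that highest in striatal and hypothalamic markers. Water without TST replicate 1, with the second highest cerebellar markers, read 9.43. Only water with TST replicate 2 and low-dose RE replicate 2 were above it. The latter read 9.63, where cerebellar granule cell markers were at -1.45, and the part of cerebellar content was not tested. The water groups overlapped, as the lower array with TST read 9.29 and the higher array without TST 9.43. In every other pairing across these groups the TST array was the higher.

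Crhr1 was 2.56-fold higher in water with TST than without (1.355, SE 0.583, 95% interval 0.02 to 2.69), past the study's threshold (unadjusted p = 0.0476, adjusted p = 0.997 by limma) although the arrays of the groups overlapped. With Crh, that made 2 of the 5 members past the threshold in this comparison, 1 higher and 1 lower, against 2.55% of all rows. Means fell in the order water with TST (10.165 ± 1.24, SD, n = 2), low-dose RE (9.37 ± 0.37), high-dose RE (9.07 ± 0.17) and water without TST (8.81 ± 0.88), and no neighbours differed beyond their spread. Without water with TST replicate 2 the TST difference was 0.48 and without water without TST replicate 2 it was 0.735, neither past the threshold. It was 2.23 without water with TST replicate 1 and 1.98 without water without TST replicate 1, both past it, and it lost the threshold at an unchanged 1.355 with any 1 of the 4 RE arrays left out (unadjusted p = 0.0677 to 0.0679). A choice made after seeing the data left out the 2 arrays highest in cerebellar markers, 1 of each water group. The difference was then 1.10, from 9.29 with TST and 8.19 without it. The latter array was the one highest in striatal and hypothalamic markers, and the part of tissue composition was not tested. That fit rests on 1 array per water group, which is assumed to vary like the RE groups.

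Against water with TST, Crhr1 was at -0.795 (SE 0.583) with low-dose RE and -1.095 (SE 0.583) with high-dose RE. Neither was past the threshold, and 95% intervals ran from -2.13 to 0.54 and from -2.43 to 0.24. Both high-dose arrays lay below both water with TST arrays, as one or the other group did in 30.5% of rows. Without water with TST replicate 2 the low-dose difference turned to 0.08 and the high-dose difference shrank to -0.22. Without replicate 1 they were -1.67 and -1.97 and past the threshold.

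Crhr2 had the smallest range of the 5 genes over the 8 arrays, near the middle of all rows. It read 5.76 and 6.59 in water without TST, 5.98 and 5.89 in water with TST, 6.18 and 6.01 with low-dose RE, and 6.37 and 6.10 with high-dose RE. The lowest and the highest value thus came from the same group, and 54.1% of all rows had a wider range over the 8 arrays than its 0.83. Choroid plexus markers, from a tissue known to express the receptor, were lowest on water with TST replicate 2, at -1.60, where Crhr2 was at -0.22 against its own mean. Means fell in the order high-dose RE (6.235 ± 0.19, SD, n = 2), water without TST (6.175 ± 0.59), low-dose RE (6.095 ± 0.12) and water with TST (5.935 ± 0.06). All 4 arrays with RE lay above both arrays of water with TST, as in 6.08% of all rows, and below both in 5.77%. Neither difference was past the threshold: 0.16 (SE 0.303) for the low and 0.30 (SE 0.303) for the high dose, with intervals of -0.53 to 0.85 and -0.39 to 0.99. The TST difference was -0.24 (SE 0.303), and 0.175 without water without TST replicate 2.

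Crhbp was close to level on 7 arrays and low on 1. It read 8.81 and 8.67 in water without TST, 9.10 and 7.81 in water with TST, 8.77 and 8.59 with low-dose RE, and 8.56 and 8.87 with high-dose RE. Its lowest array, water with TST replicate 2, lay 0.75 below the next, and the other array of that group was the highest of the 8. Sst, the somatostatin precursor of the interneurons in which Crhbp is known to be made, was also lowest there, at 12.94 against 14.71 to 15.33 on the other arrays. The 12 interneuron markers averaged highest on that array, at 0.32, but they split. Npy (9.58), Vip (7.53) and Lhx6 (5.45) were also lowest there. Pvalb (14.36), Calb2 (14.19), Nos1 (11.38) and Reln (11.80) were highest there, and the remaining markers lay in between. Means were 8.74 ± 0.10 (SD, n = 2) in water without TST, 8.715 ± 0.22 with high-dose RE, 8.68 ± 0.13 with low-dose RE and 8.455 ± 0.91 in water with TST, and no neighbours differed beyond their spread. The TST difference was -0.285 (SE 0.391, 95% interval -1.18 to 0.61). It turned to 0.36 without water with TST replicate 2, and was -0.93 and past the threshold without replicate 1. The RE differences, 0.225 for the low and 0.26 for the high dose (SE 0.391), turned in the same way, to -0.42 and -0.385 without replicate 2 and to 0.87 and 0.905, past the threshold, without replicate 1.

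**Figure D2:**
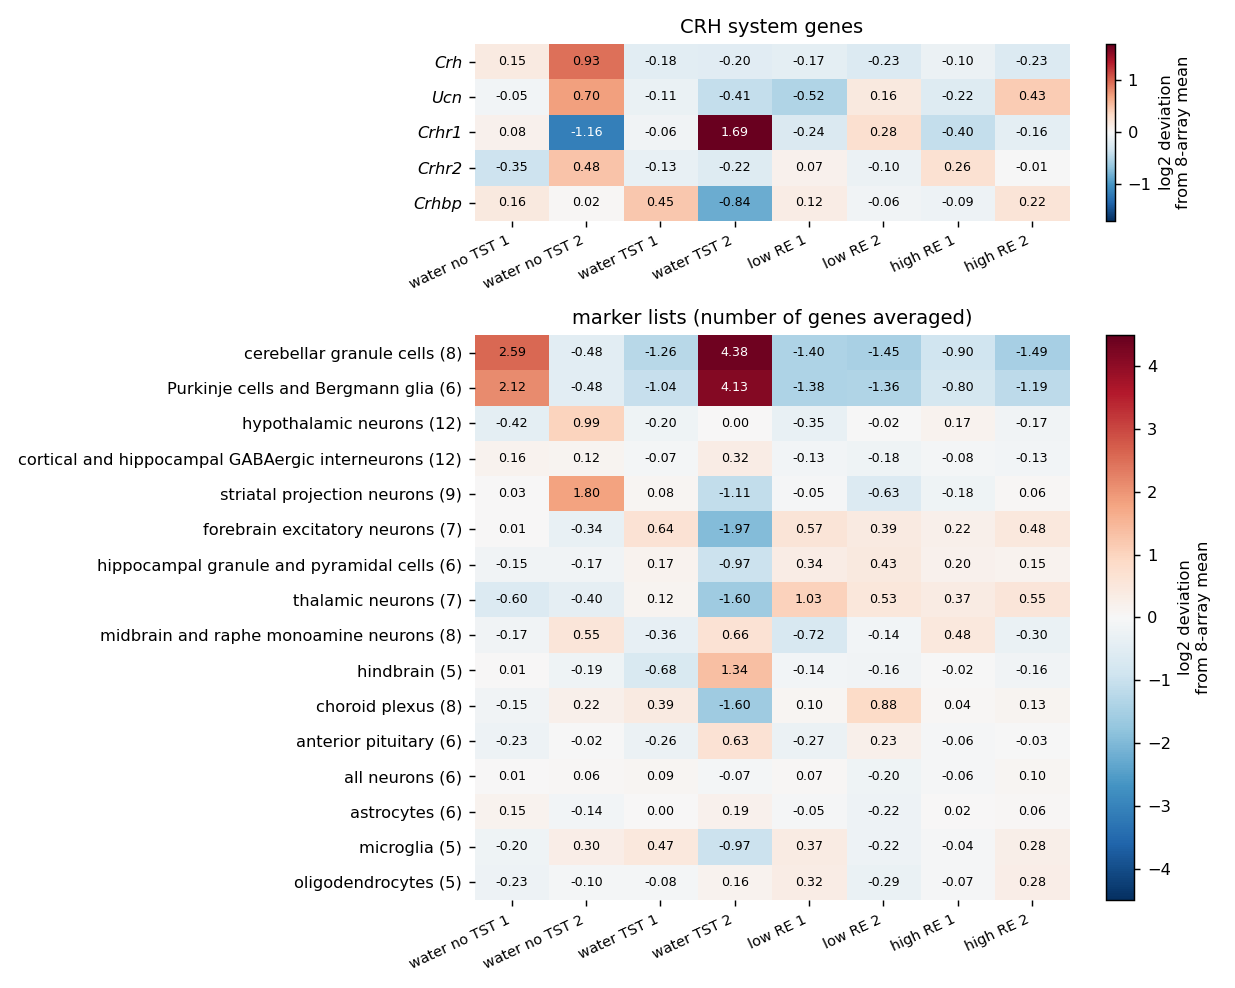
Deviation of each array from the 8-array mean in log2 units, for the CRH system genes (top) and for the mean of each marker list (bottom, number of genes in brackets), red above and blue below the mean; the panels have their own colour scales. Crhr1 at 1.69 and Crhbp at -0.84 have their extremes on water with TST replicate 2, where cerebellar granule cell markers are at 4.38, and Crh at 0.93 on water without TST replicate 2, where striatal markers are at 1.80.

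Across the 6 comparisons, the count past the study's threshold was 2 of 5 for TST against no TST, 0 of 5 for low-dose RE against water with TST (3.54% of all rows), 0 of 5 for high-dose RE against water with TST (3.17%) and 0 of 5 between the doses (1.91%). Against water without TST it was 1 of 5 for the low dose (3.15% of all rows) and 1 of 5 for the high dose (1.97%), Crh in both. The arrays of the groups compared did not overlap for 2, 1, 2, 0, 1 and 1 of the 5 in the same order, against 27.5, 25, 30.5, 26.6, 30.9 and 35.4% of all rows. With the one-way analysis of variance named in the methods, on 4 arrays per comparison, 0 of the 5 passed in each of the 6. In the moderated F-test of any difference among the 4 groups, 0 of the 5 had an unadjusted p under 0.05 (1.82% of all rows), with Crh lowest at unadjusted p = 0.0796. Between doses the differences were 0.285 for Ucn (SE 0.369), 0.14 for Crhr2 (SE 0.303), 0.035 for Crh (SE 0.285), 0.035 for Crhbp (SE 0.391) and -0.30 for Crhr1 (SE 0.583). The intervals of these dose differences reached at least 0.69 log2 units on the higher side.

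**Figure D3:**
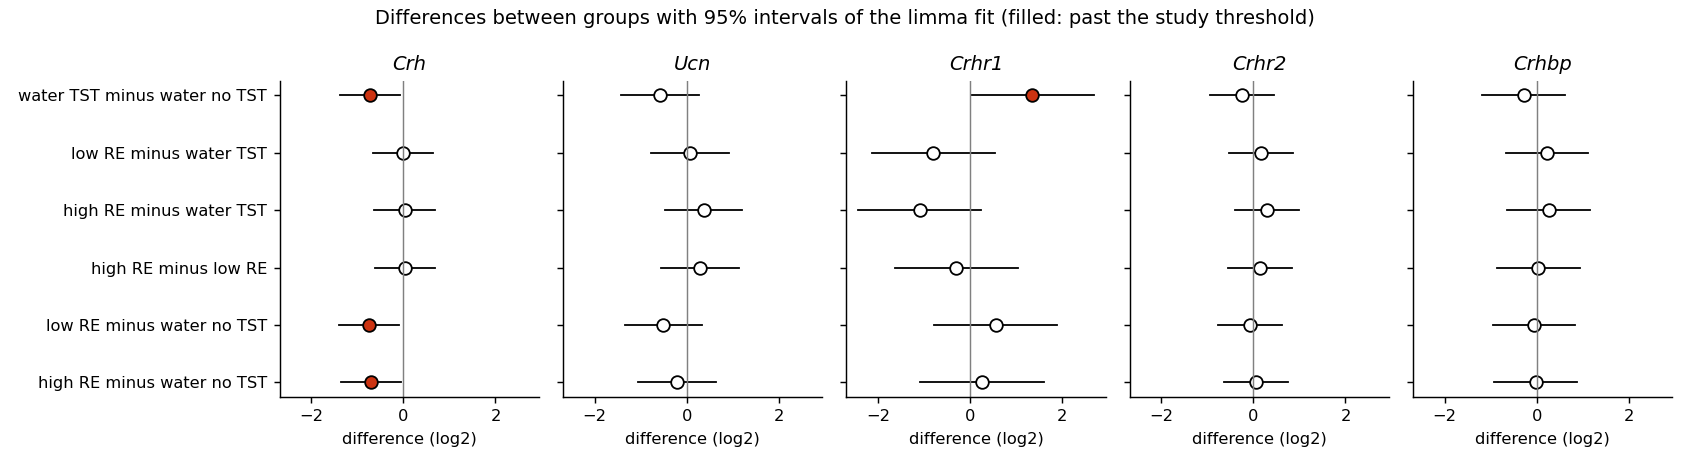
Difference of group means in log2 units for each gene (panels) in 6 comparisons (rows), with 95% intervals of the limma fit and filled points past the study's threshold. The filled points are Crh in the 3 comparisons with water without TST, between -0.74 and -0.705, and Crhr1 at 1.355 for TST against no TST.

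**Figure D4:**
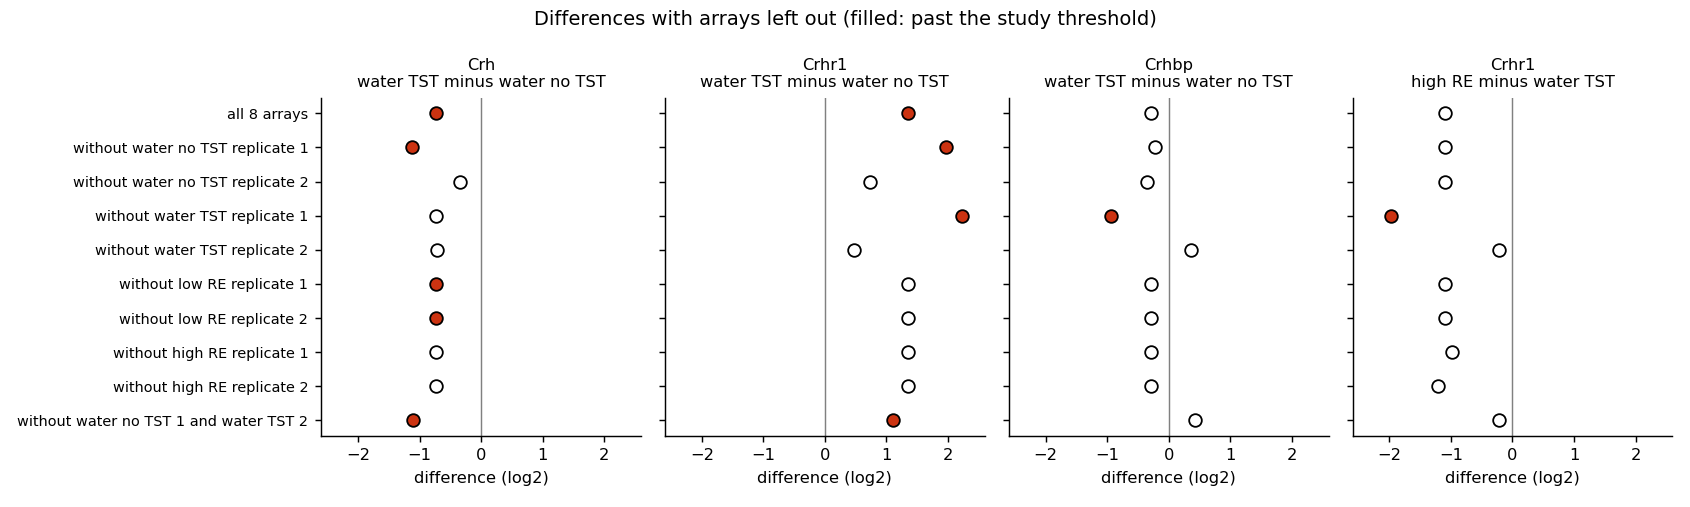
Differences in log2 units with all arrays, with each array left out in turn, and without the 2 arrays highest in cerebellar markers, for 4 gene and comparison pairs; filled points are past the study's threshold. Crh ranges from -1.12 to -0.34, and its sign could not turn because the water groups do not overlap. Crhbp in the TST comparison turns from -0.285 to 0.36 without water with TST replicate 2.

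Outside the 5 members, 38 of 42 other genes of the pathway had a row. Of these, 0 were higher and 1 lower past the study's threshold for TST against no TST (median -0.135, against 0.005 over all rows), where 1.29% of all rows were higher and 1.26% lower. For the low dose against water with TST 1 was higher and 0 lower (median 0.13 against 0.015), where 1.94% of all rows were higher and 1.61% lower. For the high dose 2 were higher and 0 lower (median 0.29 against 0.01), where 1.67% of all rows were higher and 1.51% lower. Between doses 1 was higher and 0 lower (median 0.075 against -0.005), where 0.946% of all rows were higher and 0.968% lower. Against water without TST 1 was higher with the low dose (median 0.0975 against 0.02) and 2 with the high dose (median 0.0775 against 0.015), and 0 were lower with either. There 1.81% of all rows were higher and 1.34% lower with the low dose, and 1.14% of all rows were higher and 0.824% lower with the high dose. These medians depended on replicate 2 of water with TST: without it they were -0.0275 for TST against no TST, 0.0225 for the low and 0.1225 for the high dose against water with TST, and without replicate 1 they were -0.24, 0.255 and 0.325. For TST against no TST the median was -0.065 without replicate 2 of water without TST. Between doses it ranged from 0.035, without low-dose replicate 2, to 0.0775. Against water without TST it was as low as 0.03 for the low dose, without low-dose replicate 2, and 0.05 without replicate 1 of water without TST, and for the high dose it was 0.12 and 0.1875 without replicate 1 and 2 of that group and 0.1575 without high-dose replicate 2.

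The further ligands of CRHR2, urocortin 2 and 3, did not pass the threshold in any comparison. Ucn2 ranged from 3.89 to 5.32 and Ucn3 from 4.70 to 5.65 over the 8 arrays, and the TST differences were -0.015 (SE 0.405) and 0.155 (SE 0.359). Both genes lay below every array's median, so their signal over background cannot be judged. The 5 measured genes of prohormone processing had a median TST difference of -0.62, with 5 of 5 below 0 and none past the threshold. The direction came from replicate 2 of water with TST: without it the median was 0.17 and 5 of 5 lay above 0. As deviations from the mean of all arrays, the list averaged 0.19 on replicate 1 of that group and -1.02 on replicate 2. Pcsk1, a convertase, read 7.31 on water with TST replicate 2 and 8.95 to 9.68 on the other 7 arrays. Pam, the amidating enzyme, read 12.79 there and 13.99 to 14.25 elsewhere, and Cpe 13.6 there and 15.01 to 15.47 elsewhere. The other genes of the list fell less: Scg5 read 15.32 there and 15.65 to 16.02 elsewhere. Pcsk1n, at 11.17 there, was lower on low-dose RE replicate 2, at 10.97. Nr3c1, the glucocorticoid receptor that represses Crh in the hypothalamus, differed by -0.12 (SE 0.290) with TST, and by 0.215 and 0.39 (SE 0.290) with the low and high dose against water with TST. Pomc, the pituitary and hypothalamic precursor of ACTH, read 8.05 on water with TST replicate 2 and 6.06 to 6.67 on the other arrays. Its TST difference was 0.42 (SE 0.551).

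Of the signalling genes, Adcy5, a striatal adenylyl cyclase, was lower with TST (-1.30, SE 0.559), the single pathway gene past the threshold there. It read 12.16 on replicate 2 of water without TST and 9.42 on replicate 2 of water with TST, the arrays highest and lowest in striatal markers, and the groups overlapped at 10.61 and 10.75. Without the first of these it was at -0.525 and without the second at -0.635, neither past the threshold. It also lost the threshold at -1.30 with any RE array left out, with the arrays of the water groups fitted alone and with the one-way analysis of variance (unadjusted p = 0.106 and 0.331).

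Rapgef3, a cyclic AMP sensor known as Epac1, passed the threshold in 3 of the 4 comparisons of an RE group with a water group. It read 8.28 and 8.65 in water without TST, 8.38 and 8.09 in water with TST, 8.68 and 9.10 with low-dose RE, and 9.24 and 9.07 with high-dose RE. Every array with RE lay above all 4 water arrays, as in 1.8% of all rows, and every one lay below in 1.48%. Thalamic markers also averaged higher on every array with RE than on every water array, and the part of tissue composition was not tested. Rapgef3 is described because it passed the threshold. Against water with TST the difference was 0.655 (SE 0.263) for the low dose and 0.92 (SE 0.263) for the high dose, and against water without TST it was 0.69 (SE 0.263) for the high dose, all 3 past the threshold and the first pair sharing their control arrays. The low dose against water without TST, at 0.425 (SE 0.263), was not past it. With the one-way analysis of variance the high-dose difference from water with TST passed (unadjusted p = 0.0318), and the other 2 of the 3 did not (0.124 and 0.0771). The high-dose difference from water with TST stayed past it with any 1 array left out, from 0.775 to 1.065. The low-dose difference lost the threshold when replicate 2 of water with TST (0.51) was left out, or low-dose replicate 2 (0.445) or either high-dose array (0.655). That from water without TST did not pass without replicate 1 of that group (0.505) or high-dose replicate 1 (0.605) or 2 (0.775).

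Nr4a1, a nuclear receptor gene switched on quickly by cyclic AMP, read 9.72 and 9.32 in water without TST, 10.39 and 9.03 in water with TST, 10.41 and 11.18 with low-dose RE, and 10.61 and 11.41 with high-dose RE. It was past the threshold at 1.30 (SE 0.489) for high-dose RE against water with TST, at 1.275 for low-dose RE and 1.49 for high-dose RE against water without TST. The part of tissue composition in these 3 differences, thalamic markers included, was not tested. The first was 0.62 without water with TST replicate 2 and 0.90 without high-dose replicate 2, not past it. The one-way analysis of variance passed none of the 3 (unadjusted p = 0.241, 0.0989 and 0.0795), and the arrays of the groups compared, fitted alone, did not pass the first (0.0549). The low-dose difference did not pass without either water without TST array (1.475 and 1.075) or low-dose replicate 2 (0.89), and the last did not pass without replicate 2 of water without TST (1.29) or of the high dose (1.09). Avpr1b, the vasopressin receptor of pituitary corticotrophs, read 4.52 to 5.65 over the 8 arrays, below every array's median (7.45 to 7.51). Its signal over background cannot be judged. It was higher with the high than the low dose (0.71, SE 0.287), with 5.65 and 5.31 against 4.52 and 5.02. It did not pass without either array of water without TST (0.71), low-dose replicate 1 (0.46) or high-dose replicate 1 (0.54), or with the one-way analysis of variance (unadjusted p = 0.143).

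Genes whose values over the 8 arrays ran most like a member's were taken from 4188 genes of at least median level and range, with Pearson's r as a description. The arrays differed in brain region markers, and the part of tissue composition in these values was not tested. For Crh they were Pde10a, a phosphodiesterase of striatal neurons (r = 0.959), Tram1l1 (r = 0.95) and Ndn, a gene of the Prader-Willi region with hypothalamic expression (r = 0.944). Without the pair of arrays farthest from the median, both of water without TST, r was 0.116, 0.512 and 0.960. The 6 Crh values left spanned only 0.13 log2 units, and a flat signal near background cannot be told apart from a shared level. For Crhr1 they were Tmem178 (r = 0.990), Maml2 (r = 0.983) and Susd6 (r = 0.973), and without replicate 2 of both water groups r was 0.895, 0.822 and 0.755. For Crhbp they were Cdk17 (r = 0.982), Serpini1, the neuroserpin gene (r = 0.980), and Synpo, a gene of dendritic spines (r = 0.980), with 0.913, 0.896 and 0.717 without both arrays of water with TST. For Crhr2 they were Vat1 (r = 0.944), Zcchc12 (r = 0.943) and Tmem130 (r = 0.939), with 0.738, 0.902 and 0.738 without water without TST replicate 2 and high-dose RE replicate 1. For Ucn they were Cd55 (r = 0.896), Atpaf2 (r = 0.867) and S100pbp (r = 0.852), with 0.675, 0.568 and 0.707 without replicate 2 of water without TST and of high-dose RE.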

How the data were processed

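The 8 RNA samples were hybridized to Clariom S arrays. Per the design text in the labels, the authors normalized the arrays with RMA in Transcriptome Analysis Console 4.0.1, and the deposited table gives log2 values with 2 decimals, from 2.76 to 19.79; 1359 values exceed 16, so folds hold only as far as that scale is a true log2. Rows were named from the platform annotation: 19572 of 22206 rows had 1 symbol, 0 several and 2634 none. A gene with several rows was given by the row with the highest mean.

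Values were used as deposited. A group-means model was fitted to all rows and all 8 arrays with lmFit and eBayes of limma 3.58.1 in R 4.3.3 (4 residual and 4.30 prior degrees of freedom), for all 6 pairs of groups. Tests were two-sided and p-values were adjusted by Benjamini-Hochberg across the whole table. The script was tested on simulated data. Precision is limited by having 2 arrays per group.

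The members and gene lists were chosen with earlier results of these data known. Named besides the members were pathway genes past the study's threshold, and Ucn2, Ucn3, Nr3c1 and Pomc whatever their values. The 3 genes with the highest correlation with each member were also named, leaving out predicted loci. Genes named singly from the prohormone processing and interneuron lists were added after their values were seen. Marker lists are means of deviations from each gene's 8-array mean. The marker list of neurons in general lay between -0.20 and 0.10 on all arrays, that of astrocytes between -0.22 and 0.19, of oligodendrocytes between -0.29 and 0.32, of microglia between -0.97 and 0.47, of thalamic neurons between -1.60 and 1.03, of midbrain and raphe monoamine neurons between -0.72 and 0.66 and of hindbrain between -0.68 and 1.34. The fit was repeated with the replicate number as a block, on the arrays of one comparison alone, with a robust, trended prior, without the 25% of rows of lowest mean, after quantile normalization, with one-way analysis of variance as in the methods, without each array in turn and, chosen after seeing the data, without the 2 arrays highest in cerebellar markers. Replicate numbers did not pair the samples.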

Additional observations from a re-analysis of the deposited data

How the results depend on the processing

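Over all settings but the one added after seeing the data, the differences of the members kept direction and side of the threshold 361 times, lost the threshold 28 times, gained it 5 times and turned sign 26 times. The TST comparison of the water groups counted 2 members past the threshold; it was 1 with the replicate block, the trend prior, the dim rows left out and quantile normalization, where Crh passed and Crhr1 did not, and 0 with the groups compared alone and the analysis of variance. Low-dose RE against water without TST counted 0 with the groups compared alone and with the analysis of variance, and high-dose RE against water without TST 0 with the analysis of variance, in place of 1. Rows past the threshold numbered 352 for the TST, 267 for low-dose RE against water with TST and 1320 for high-dose RE against water without TST with the groups compared alone, 487 and 975 for the latter pair with the analysis of variance, and 249 between doses without the dim rows; the cause was not tested.

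Numbered replicates share only a number: the deviations of replicate 1 from its group mean correlated between -0.293 and 0.169 over pairs of groups, and the replicate block changed no call of a member but that of Crhr1 in the TST comparison (unadjusted p = 0.0558). Of the pathway genes named, Adcy5 with TST and Rapgef3 with the low dose against water with TST lost the threshold under the block (unadjusted p = 0.0629 and 0.0501). Of the 8 calls of pathway genes, the analysis of variance kept 1, Rapgef3 with the high dose against water with TST, and the groups compared alone lost 3: Adcy5, Rapgef3 with the low dose (unadjusted p = 0.0835) and Nr4a1 with the high dose against water with TST. Adcy5 was also lost with the trend prior and without the dim rows (unadjusted p = 0.0534 and 0.053), and Avpr1b was not tested without the dim rows. Water groups gave -0.293, and they were not crossed, as nothing else pairs them. Each gene had 1 row, so another choice of row gave no value.

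With 1 array left out, rows past the threshold ranged over 364 to 3707 (main value 567) for TST against no TST, 496 to 3767 (main value 787) for low-dose RE against water with TST, 354 to 3785 (main value 705) for high-dose RE against water with TST, 247 to 1183 (main value 425) between doses, 420 to 1532 (main value 700) for low-dose RE against water without TST, 268 to 858 (main value 437) for high-dose RE against water without TST. The highest counts of the first 3 comparisons came without water with TST replicate 1, which leaves replicate 2 alone in that group; those of the next 2 came without low-dose replicate 1, and that of the last without either water with TST array. The lowest came without a high-dose replicate, except the 420, which came without replicate 1 of water without TST. Members past it ranged over 0 to 2 for TST against no TST, 0 to 2 for low-dose RE against water with TST, 0 to 2 for high-dose RE against water with TST, 0 to 0 between doses, 0 to 1 for low-dose RE against water without TST, 0 to 1 for high-dose RE against water without TST, and 0 to 2 in the F-test. Differences that turned sign in such a fit are given as ranges in log2 units. For TST against no TST these were Crhr2 -0.655 to 0.175, Crhbp -0.93 to 0.36. For low-dose RE against water with TST these were Crh -0.04 to 0.02, Ucn -0.26 to 0.42, Crhr1 -1.67 to 0.08, Crhbp -0.42 to 0.87. For high-dose RE against water with TST these were Crh -0.04 to 0.09, Crhbp -0.385 to 0.905. Between doses these were Crh -0.03 to 0.1, Ucn -0.055 to 0.625, Crhbp -0.12 to 0.19. For low-dose RE against water without TST these were Crhr1 -0.06 to 1.18, Crhr2 -0.495 to 0.335, Crhbp -0.15 to 0.03. For high-dose RE against water without TST these were Ucn -0.595 to 0.155, Crhr1 -0.36 to 0.88, Crhr2 -0.355 to 0.475, Crhbp -0.18 to 0.13.

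Leaving out the 2 arrays highest in cerebellar markers was chosen after seeing the data and kept 1 array per water group. Without TST, that was the array highest in striatal and hypothalamic markers. In this setting Crhbp was at 0.43 for the TST. It was at -0.42 and -0.385 for the low and high dose against water with TST and at 0.01 and 0.045 against water without TST. Ucn was at -0.07 and Crhr1 at 0.08 for the low dose against water with TST, and Crhr2 at -0.355 for the high dose against water without TST. Against water without TST, 2 members passed with either dose, Crh and Crhr1 (1.18 and 0.88), with 705 rows for the high dose, and 2 passed in the F-test. With 2 arrays a group, signal over background and its error cannot be judged for dim rows.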
